A study of Drosophila melanogaster with 2 samples.

Results

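The genes described here are the 9 origin recognition and licensing genes of Drosophila melanogaster: Orc1, Orc2, lat, Orc4, Orc5, Orc6, Cdc6, dup and geminin. They were taken as a named list, out of 13968 genes annotated as protein-coding on the chromosome arms. The gene lat (latheo) carries the symbol Orc3 in the annotation used. The data were peak lists from chromatin immunoprecipitation and sequencing (ChIP-seq) of whole embryos aged 0 to 24 h. The flies were of 1 transgenic strain that expressed the transcription factor E2f2 fused to eGFP, a green fluorescent protein, and the fusion was precipitated through its tag with an antibody against GFP. Both samples, biological replicates 1 and 2, belonged to this single group, so there was no contrast between conditions and no test between groups. The labels do not state which promoter drove the fusion, and no input or untagged sample was analysed here. Whole embryos mix cell types and ages, so strong binding in a few cells and weak binding in many cannot be told apart.

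Before S phase, the origin recognition complex (ORC, made of the products of Orc1, Orc2, lat, Orc4, Orc5 and Orc6) marks replication origins. The loading factors Cdc6 and Cdt1, the latter encoded by dup (double parked), then join ORC and place the MCM helicase on DNA, a step called licensing. Geminin binds Cdt1 and blocks further loading once S phase has begun. Genes of this step are classic E2F targets in animals, and fly Orc1 is known to be regulated by E2F. E2f2 is the fly E2F protein that acts mainly as a repressor, with Dp, the retinoblastoma family proteins and the dREAM complex.

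A gene was counted as bound when a peak summit lay within 500 bp of one of its annotated transcription start sites (TSSs). The sequences under the strongest peaks of Orc2, Orc5 and Cdc6 are shown because they hold 3 different arrangements of the motifs searched, and those of the other 6 genes are not printed. Each is the longest stretch free of annotated exons within 100 bp of the summit, 5′ to 3′ along the gene, from the RefSeq copy of the dm6 (Release 6) assembly. Capitals mark TATCGATA, the DNA replication-related element (DRE), or TTTGAA, the cell cycle homology region (CHR) motif. The stretches are chr3R:13964682-13964882 on the plus strand for Orc2, chr2L:13829742-13829836 on the plus strand for Orc5 and chr3L:8634070-8634205 on the minus strand for Cdc6. The last 2 lines are 30-base sites that lie mostly in the 5′ UTRs of Orc5 and Cdc6, at chr2L:13829836-13829865 and chr3L:8634044-8634073, with an E2F-type match in capitals.
Orc2: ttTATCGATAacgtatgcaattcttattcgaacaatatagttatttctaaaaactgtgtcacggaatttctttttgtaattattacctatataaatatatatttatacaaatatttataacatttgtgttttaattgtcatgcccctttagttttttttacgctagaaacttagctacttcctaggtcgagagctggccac
Orc5: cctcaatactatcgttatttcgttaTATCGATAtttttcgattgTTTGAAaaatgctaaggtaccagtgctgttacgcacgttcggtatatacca
Cdc6: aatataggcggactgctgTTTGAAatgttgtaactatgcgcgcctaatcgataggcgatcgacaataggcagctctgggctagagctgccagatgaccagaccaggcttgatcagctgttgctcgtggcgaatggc
Orc5 site: agagggaataaTTTGGCGCcatttcaatgg
Cdc6 site: tggcaaactcaaTTTGCGCgcttttttaac
In the Orc5 site the capitals are a full E2F motif, and in the Cdc6 site they match only a shorter form.

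All 9 genes carried an E2f2 peak at a start site, in the list made from both replicates (the conservative thresholded list, called the main list here) and in the separate list of each replicate. Among all protein-coding genes 40.7% were bound in the main list, 33.5% in replicate 1 and 42.1% in replicate 2. The licensing genes also stood high in the lists. Their signal value, the authors' measure of peak strength, had a median of 795 in the main list, against 252 over all 5681 bound genes, each at its strongest peak. The weakest of the 9, geminin, still ranked 1781 among 7312 entries, and 13.9% of protein-coding genes had a peak of at least that signal. Of the 1000 entries of highest signal, which bound 7.82% of protein-coding genes, 5 of the 9 genes had one: Cdc6, dup, lat, Orc1 and Orc5. In the ranked list the 9 peaks had a −log10 IDR between 4.36 at geminin and 5, where Orc1, lat, Orc5, Cdc6 and dup were tied. Signal values are on the scale of their own list, so ranks within a list are given beside them.

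**Figure D1:**
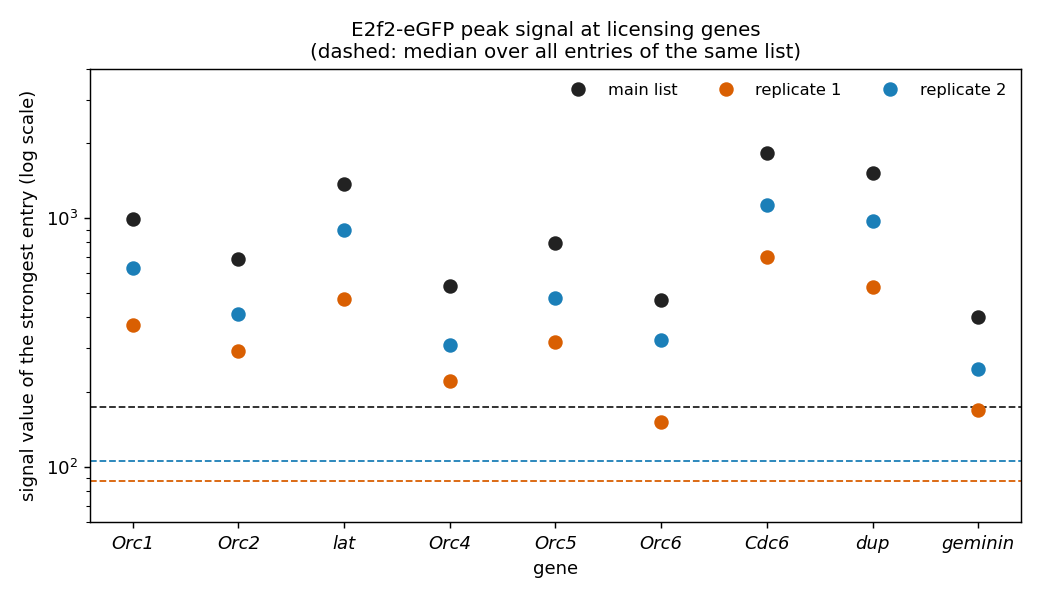
Signal value of the strongest E2f2-eGFP peak within 500 bp of a start site (y axis, log scale) for each of the 9 genes (x axis) in the main list and in the list of each replicate, with the median over all entries of each list as a dashed line. Every gene lies above the median of its list, from 400.1 at geminin to 1837 at Cdc6 in the main list.

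The strongest peaks at the genes of both loading factors had higher signals than those at the ORC genes and the inhibitor, in the main list and in each replicate. For dup this rests on a summit nearer to a start of the neighbouring gene SRPK (39 bp) than to its own (71 bp). With each peak given to its nearest TSS alone dup had a main-list signal of 342, the lowest of the 9 genes, while Cdc6 stayed highest. Cdc6, an ATPase related to Orc1 that completes the loading platform, had a signal of 1837 in the main list, 700.1 in replicate 1 and 1130.4 in replicate 2. It ranked 116 of 7312, 114 of 5002 and 119 of 8250 entries in these lists. The peak spanned 8633777 to 8634391 on 3L, and its summit lay 36 bp upstream of the TSS, in an intron of the overlapping gene Zasp66. The gene dup had 1517 in the main list, 531 in replicate 1 and 978 in replicate 2, with ranks of 240, 301 and 223. Its peak, from 15380383 to 15381079 on 2R, was the widest of the 9 at 697 bp. It covered both annotated starts of dup, which lie 374 bp apart, and had a second summit of 342 (rank 2040) that was also in the list of replicate 2 (269) but not in that of replicate 1. In replicate 1 that second summit stood in the ranked list at a signal of 35.9 and a −log10 IDR of 1.21, below the threshold of 2 (IDR, the irreproducible discovery rate, of 0.01).

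The 6 ORC genes spanned nearly the whole range between these genes and geminin. The highest was lat, with 1376 in the main list, 475 in replicate 1 and 896 in replicate 2 (ranks 325, 393 and 301). It also had a second, separate peak of 1188, 418 and 772 in the same lists, 44 bp upstream of its inner start, so each of its 2 annotated starts, 1210 bp apart, had a peak in both replicates. The outer peak spanned 13206433 to 13206970 and the inner peak 13205136 to 13205648 on 2R. Both lat peaks had a higher signal than any peak of the other 5 ORC genes in all 3 lists. Orc1, the subunit whose level follows the cell cycle in the fly, came next with 991 in the main list, 372 in replicate 1 and 631 in replicate 2 (ranks 682, 643 and 698). Its peak lay on 2R from 7525470 to 7525993 with the summit 25 bp upstream of the TSS.

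Orc5 had a signal of 795 in the main list, 319 in replicate 1 and 480.3 in replicate 2, in a peak from 13829626 to 13830008 on 2L. Orc2 had 685, 292 and 411, in a peak from 13964528 to 13965105 on 3R that held a second, weaker summit of 131 inside an intron of the gene. Replicate 1 had no second Orc2 entry, and that of replicate 2 had a signal of only 33.9 (rank 7678 of 8250). Orc5 was above Orc2 in all 3 lists. Orc4 had 537 in the main list, 222 in replicate 1 and 309 in replicate 2, in a peak from 24797283 to 24797656 on 2R. Orc6, the subunit least related to the others, had 469.5, 151 and 323, in a peak from 9846295 to 9846679 on 2R. The order of these last genes was not the same in both replicates: Orc4 was above Orc6 in replicate 1 and below it in replicate 2.

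Geminin, the inhibitor, had 400.1 in the main list, 170 in replicate 1 and 248 in replicate 2 (ranks 1781, 1484 and 1911), in a peak from 6656137 to 6656546 on 2R. It was lowest in the main list and in replicate 2, and in replicate 1 Orc6 was lower. By strongest peak, the order from the top of Cdc6, dup, lat, Orc1, Orc5 and Orc2 was the same in the main list and in each replicate, and that of Orc4, Orc6 and geminin differed. With each peak given to its nearest TSS alone, dup moved from second place to last in the main list, at a rank percentile of 72.1 in place of 96.7. Over the 9 genes Spearman's rho between the signals of the replicates was 0.95, a description over genes, against 0.937 over the 4442 genes bound in all 3 lists.

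The replicates differed in scale more than in order. The signal was higher in replicate 2 at each of the 9 genes, by a ratio between 1.39 at Orc4 and 2.14 at Orc6 with a median of 1.61. Over the 1938 genes bound in all 3 lists with at least the main-list signal of geminin the median ratio was 1.75. The rank percentile, the percentage of entries at or below a gene's signal, was also higher in replicate 2 at all 9 genes, whose list is longer. The gap was smallest at Cdc6, with 97.7 in replicate 1 and 98.6 in replicate 2, and largest at Orc6, with 67.6 and 81.8. The median gap was 4.20 points over the 9 genes and 6.16 points over those 1938 genes.

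The median distance from the strongest summit to the gene's own TSS was 36 bp over the 9 genes, against 90 bp over all bound genes and 83 bp over the 1938 strong ones. It was 13 bp at Orc6, 16 bp at Orc5, 25 bp at Orc1 and 36 bp at Cdc6, all upstream. Orc4 followed at 51 bp and dup at 71 bp, and the strongest summits of Orc2 (103 bp) and lat (172 bp) lay farther from the TSS than the median of all bound genes. At geminin the summit was 10 bp downstream of the inner of its 2 starts, in the 5′ UTR, and this was the only gene of the 9 with its strongest summit downstream of the TSS. An upstream position was usual, as 86.3% of all bound genes had it. The summits of the replicates were a median of 8 bp apart over the 9 genes, against 11 bp over the 1938 strong genes. They were 3 bp apart at Orc1 and dup, and 48 and 55 bp apart at Orc4 and Orc2.

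**Figure D2:**
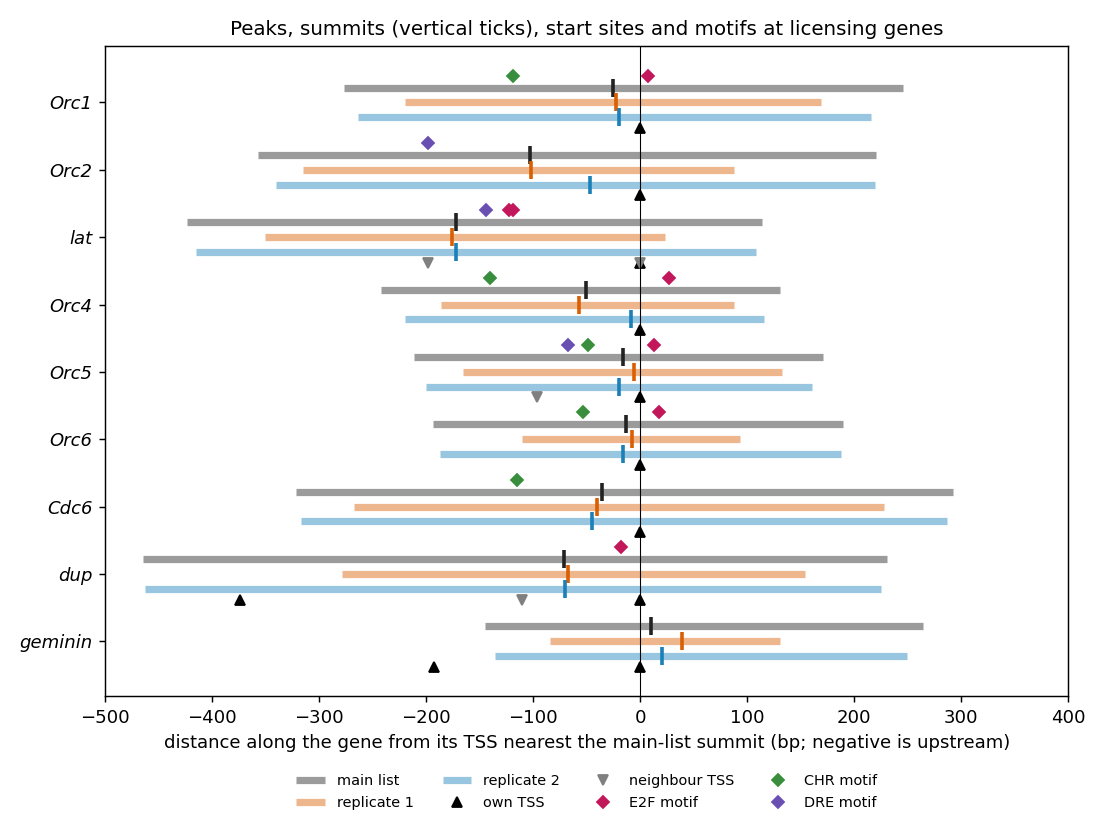
Peak intervals (bars) and summits (ticks) of the main list and of both replicates at the 9 genes, in bp from the gene's TSS nearest the main-list summit (x axis, negative values upstream), with annotated start sites as triangles and motif matches within 100 bp of the main-list summit as diamonds. Every main-list peak drawn covers the start site, and 4 of the 6 genes with an E2F motif have it just downstream of the start. No share over other genes is given for that position. At lat, only the outer of the 2 peaks is drawn.

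Several of these peaks also lay at the start of a neighbouring gene. Of the 9 genes, 6 had an oppositely oriented start within 1000 bp upstream, as did 36.2% of all protein-coding genes. The strongest lat summit was 172 bp upstream of the outer lat start and only 26 bp from the start of FLASH, a gene whose product is needed for histone mRNA processing. That outer lat start is shared with CG34315 in the annotation. At dup the strongest summit was 71 bp from the nearest dup start and 39 bp from a start of SRPK, an SR protein kinase gene. That SRPK start lies between the 2 dup starts, and another lies 461 bp upstream of the outer one. For lat and dup, then, the strongest peak could not be assigned to 1 gene. With each peak given to its nearest TSS alone, all 9 genes stayed bound, lat through its inner peak of 1188 and dup through its second summit of 342. The Orc5 start lay 96 bp from that of Arpc1, an actin-nucleating complex gene, and the summit fell between them, nearer to Orc5. The Orc4 peak was within 500 bp of the CG12849 start as well, at 460 bp. The upstream neighbours of Orc2 (Kots) and geminin (sced), 711 and 732 bp away, were not bound. Orc1, Orc6 and Cdc6 had no such neighbour.

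The full E2F motif was searched as TTTGGCGC or TTTCGCGC on both strands, within 100 bp of each strongest summit, and 6 of the 9 genes had a match: Orc1, lat, Orc4, Orc5, Orc6 and dup. The match was TTTCGCGC at Orc6 and TTTGGCGC at the other 5. Among the 5148 main-list entries with a summit within 500 bp of a protein-coding TSS, 5.91% had a match in a window of the same 201 bp. Within 50 bp of the summit 3 of the 9 genes had one, Orc1, Orc5 and Orc6, against 3.83% of these promoter entries. Among the 1545 promoter entries with at least the signal of geminin the share within 100 bp was 12.1%, and among windows of that length centred on all 13968 gene starts it was 2.33%. The centre of the nearest match lay 29.5 to 77.5 bp from the summit. At 4 genes the match began just inside the transcript, 3 bp downstream of the TSS at Orc1, 10 bp at Orc5, 14 bp at Orc6 and 23 bp at Orc4. No share of promoter entries with a match so placed is given here, so this position is not shown to be particular to these genes. A match describes these letters only and does not show where E2f2 was in contact with DNA.

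At lat, both peaks held a pair of E2F matches on opposite strands that shared 4 bases, so that the site read the same in both directions. This pair was looked for across the list after it had been seen at lat. It occurred at 25 of the 5148 promoter entries (0.486%), and at no other of the 9 genes. The pair lay upstream of the outer start and, at the inner peak, with both match centres 20.5 and 24.5 bp from the summit.

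Cdc6, Orc2 and geminin had no full E2F motif within 100 bp or within 250 bp of the summit. Cdc6, with the highest signal of the 9, held only the shorter form TTNGCGC, which read TTTGCGC in the site shown above and began 8 bp downstream of the TSS. The shorter form includes every full match and was present at 7 of the 9 genes and at 16.5% of promoter entries. The CHR motif TTTGAA, known in mammals from genes bound by DREAM, was present at 5 genes (Orc1, Orc4, Orc5, Orc6 and Cdc6), against 41.6% of promoter entries and 58.3% of those at least as strong as geminin. The DRE TATCGATA, named after its part in DNA replication gene promoters, was present at Orc2, lat and Orc5, against 13.6% and 18.8%. In the Orc5 stretch shown above the DRE begins 70 bp and the CHR motif 51 bp upstream of the TSS, and the E2F motif follows 10 bp downstream. In the window Orc2 had a DRE 201 bp upstream of its TSS and neither of the other motifs, and geminin had none of these motifs. A second Orc2 DRE began 17 bp downstream of the TSS. It lay outside the window, 123.5 bp from the strongest summit, but 85.5 bp from the weaker second summit. No test of these counts was made.

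The genes that act next were bound as well, beside 40.7% of all protein-coding genes in the main list. Their signals were lower on the median than those of the licensing genes. All 6 MCM helicase genes were bound in the main list and in each replicate, with a median main-list signal of 466 from 278 at Mcm2 to 932 at Mcm7, with dpa, the fly Mcm4, at 931. All 10 genes of helicase activation were bound in the main list, with a median of 348. With each peak given to its nearest TSS alone 8 of them were bound, and 9 with a start window of 250 bp. These alternatives bound 31.6% and 35.8% of all protein-coding genes, and the MCM count stayed at 6 in both. RecQ4, a helicase-related initiation gene, was highest at 1483 and Mcm10 followed at 827. Psf1, a GINS subunit gene, had the lowest signal at 86.7 with its summit 447 bp downstream of the TSS, and it was bound in neither separate list. The kinase gene Cdc7 had 341 and chif, which encodes its regulatory subunit, 136. The other values were 742 at Cdc45, 438 at mus101, 355 at Sld5, 258 at Psf2 and 237 at Psf3. The remaining MCM values were 493 at Mcm3, 438 at Mcm6 and 343 at Mcm5.

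Genes that restrain or time licensing were bound at 6 of 7 in the main list, beside 40.7% of all protein-coding genes. CycE, the cyclin of S phase entry, had a main-list signal of 1339 and its kinase gene Cdk2 399. Among ubiquitin ligase genes, pic (the fly DDB1) had 995, Skp2 816, l(2)dtl (the fly Cdt2, which targets Cdt1) 478 and Cul4 144. The exception was fzr, an activator of the anaphase-promoting complex, with a thresholded peak in replicate 2 (61.2) but not in replicate 1. Its ranked entry in the list of both replicates had a −log10 IDR of 0.148. In the larger thresholded list of both replicates, all 7 of these genes were bound. The full E2F motif was present at 2 of 6 bound MCM genes (dpa and Mcm6), 2 of 10 bound helicase activation genes (Sld5 and mus101) and 0 of 6 bound control genes, beside 6 of 9 of the licensing genes. Over all promoter entries the share was 5.91%. The differences between the gene lists were not tested.

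**Figure D3:**
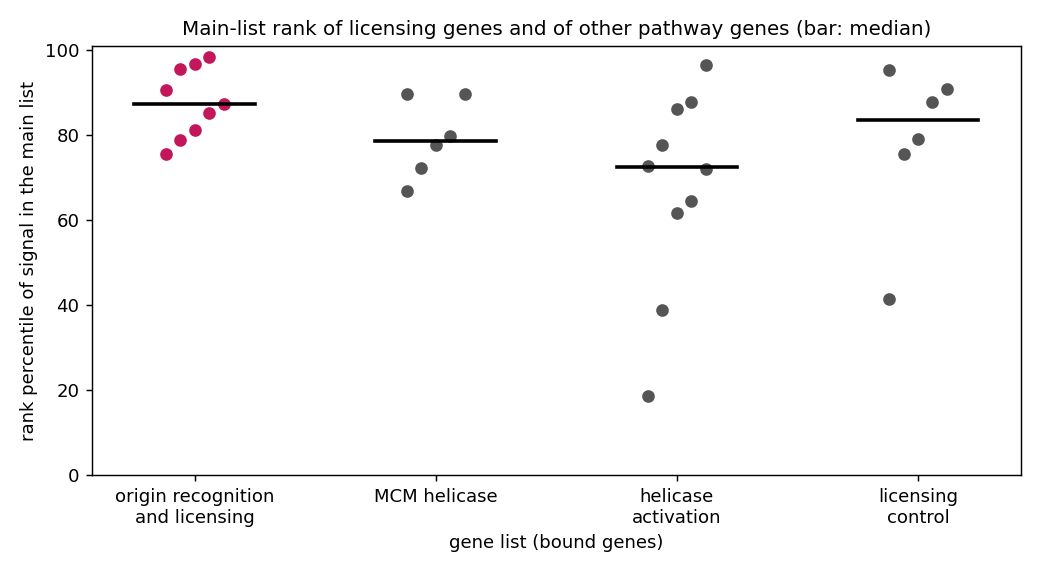
Rank percentile of signal in the main list (y axis) for the bound genes of 4 lists (x axis), each point a gene and each bar a median. The 9 licensing genes lie between 75.7 and 98.4, with a median of 87.4, and the medians of the other lists are 78.7, 72.4 and 83.5.

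Genes outside these lists had nearly the same standing in the 3 lists. Those nearest to Cdc6 in rank percentile over the main list and both replicates, among 4441 genes, were CG3662, CG7920 and Syx7, at distances of 0.124, 0.150 and 0.166 points. Those nearest to geminin were CG15536 at 1.05 points, and CG15484 and CG6180 at 1.13 points. CG15484 and CG6180 had the same main-list signal (419) and the same percentiles in all 3 lists, so they may not be separate matches.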

How the data were processed

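Peak lists were deposited for each of the 2 replicates, and lists of both together, in dm6 per the labels. The authors' peak caller gave each peak a signal value, and the labels do not say what it is relative to. The ranked lists as deposited also hold the −log10 of the global IDR, which was at least 2 in every thresholded entry. The sources used here do not give the caller, the aligner or the read depth. Sonicated fragments were 200 to 800 bp, per the labels.

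Start sites came from Ensembl release 115 and sequence from the RefSeq Release 6 genome, and every thresholded peak lay within its chromosome lengths. The name lat is an older symbol of 2 genes and was read as Orc3. Summits were assigned and motifs matched exactly with Python 3.11.15 and pandas 2.3.3. These steps were tested on simulated data. In the main list, 181 ranked entries past the threshold are absent, with 0 at the 9 genes.

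With 1 group no test between conditions was made. The genes and lists were chosen with earlier results of these data known. Genes were named by rule: the 9, the pathway lists, their divergent or nearer neighbours, and the 3 genes nearest in rank to the strongest and weakest. CG34315 and Zasp66 were named after their positions were seen. Alternatives were other lists, single replicates, windows, peak positions, assignments and motif forms.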

Additional observations from a re-analysis of the deposited data

How the results depend on the processing

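All 9 genes stayed bound in 9 of 10 alternatives: the larger list, each replicate alone, start windows of 250 and 1000 bp, peak midpoints, 1 entry per merged region, gene 5′ ends and the nearest TSS alone. Some of these could not lose a gene. The larger list held the same strongest peaks, a 1000 bp window can only add genes, and every strongest summit lay within 172 bp of a start. In these 9 alternatives the share of all protein-coding genes bound ran from 31.6% (nearest TSS alone) to 44.3% (1000 bp). With the 1000 entries of highest signal 5 were bound, beside 7.82% of all genes, 2 MCM genes, 2 helicase activation genes and 3 control genes. This follows from a shorter list. The median rank percentile of the 9 genes (87.4) was 84.1 without replicate 2 and 88.0 without replicate 1, and 84.1 among promoter entries alone. With a motif window of 50 bp the E2F motif was found at 3 of the 9 genes (Orc1, Orc5 and Orc6) and at 3.83% of promoter entries. It was found at 6 with the summits of either replicate alone, and at 6 and 9.63% with a window of 250 bp. The rank percentile of dup fell to 72.1 when each peak was given to its nearest TSS. Of 90 values of single genes, 15 moved by more than the SD between replicates. These included all 9 genes without replicate 2, each at a lower percentile. That SD was made from the 2 replicate values of the gene, so it was no independent measure for the single replicates. No paired analysis was possible because there was 1 group. Peaks without read counts give no error of a signal beyond the spread of 2 replicates.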

Other observations

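Weaker entries beside these genes were present in the lists but entered no comparison above. At the inner start of lat a further ranked entry, 250 bp upstream, had a signal of 125 and a −log10 IDR of 0.212 in the list of both replicates, far below the threshold. At Orc4 the list of replicate 2 held a second entry 235 bp upstream with a signal of 11.4 (rank 7993 of 8250), and neither the main list nor that of replicate 1 had it. At geminin replicate 2 had a ranked entry of 20.9 near the outer start, with a −log10 IDR of 1.17, below the threshold. Promoter entries of the main list with a full E2F motif had a median signal of 577 (304 entries), against 199.7 without one (4844 entries). Among the 9 genes the medians were 893 with the motif (6 genes) and 685 without (3 genes), although Cdc6, the strongest, was among those without.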
